A study of Mus musculus with 6 samples.

Results

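The genes described here are those that were silent or nearly silent in Trp53_WT and counted in Trp53_KO. ID8 is an immortalized epithelial line that the labels place in the ovarian surface epithelium of C57BL/6 mice, and 6 libraries of its total RNA were sequenced, from cells left untreated and growing asynchronously. In 3 libraries the genotype is Trp53-/- (Trp53_KO) and in 3 it is Trp53+/+ (Trp53_WT). How Trp53 was removed, and whether the replicates are separate cultures or clones, is not stated in the labels, so the spread between libraries may be technical. For the same reason, differences between clones and differences of genotype cannot be told apart here. Below, n is a number of libraries, and SE and adjusted p rest on the spread between libraries. A gene was taken when its raw counts summed to at most 3 over the Trp53_WT libraries and to at least 60 over the Trp53_KO libraries, which 55 of 41327 genes met. Of these, 10 were left out by name and 45 remained. The same thresholds in mirror image, at most 3 counts in Trp53_KO and at least 60 in Trp53_WT, were met by 27 genes.

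The members were therefore chosen on their counts in both groups, and those counts are given below as a description, with no test. All 45 were among the 13651 genes that edgeR's quasi-likelihood test could be run on, of which 14.1% were called higher and 16.1% lower in Trp53_KO at a Benjamini-Hochberg adjusted p under 0.05. Nothing is read from the members' own calls, because the thresholds fixed them.

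A gene with close to no RNA in a cell type is usually held off by closed chromatin, by DNA methylation at its promoter or by the lack of an activating transcription factor. Many genes of this kind are read in other organs, such as testis, brain, vessel wall or platelets, and a promoter rich in CpG dinucleotides is commonly unmethylated whether or not its gene is read. The protein p53, encoded by Trp53, is a transcription factor that binds response elements in DNA and activates genes of cell cycle arrest and cell death.

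Trp53 itself was at 29.6, 25.5 and 25.3 CPM in the Trp53_KO libraries, where CPM is the count per 1e+06 counts of a library after TMM scaling, and at 110, 97.2 and 105 CPM in the Trp53_WT libraries. Its log2 fold change was -1.95 ± 0.09 (SE, n = 3 each, edgeR adjusted p = 2.74e-07), and the groups did not overlap. Libraries held between 15319956 and 19954170 counts. Trp53_WT replicate 1 stood apart from the other Trp53_WT libraries, with a chi-square per degree of freedom of 27.5 and 26.9 against 2.01 between the remaining pair. Without it, 48 genes remained after the named exclusions (Trp53_WT limit 2 counts over the libraries kept), against 45 with it. The calls over all tested genes moved more, to 2418 higher and 2566 lower of 13894 without it, against 1930 and 2200 of 13651. The shares given beside each list are those with all 6 libraries. Of the mesothelial and ovarian surface markers, Msln was at 1170 CPM in Trp53_KO and 1400 in Trp53_WT and Wt1 at 339 and 192, while others were close to absent in a group: Bnc1 was at 0.0725 CPM in Trp53_KO and 38.9 in Trp53_WT, Lrrn4 at 65.5 and 0.234 and Amhr2 at 39.2 and 0.483. Of 27 such markers outside the members, 22 were tested, 11 rose and 6 fell, and 4 were at 0 in all libraries. The shares over all tested genes were 14.1% and 16.1%.

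The upstream sequences show how differently these genes begin. The table of RefSeq promoter windows (GRCm38.p6, 250 bases before to 50 after a start) held 36 windows for 30 of the members, of which 26 had a single window, and 13 of these had neither an exon of any gene nor any of the gene's own annotated body in the 250 upstream bases. From these 13 the 4 with the most CpG dinucleotides and the 3 with the fewest are printed, 5′ to 3′ on the strand of the gene, with each CpG in capitals. They were picked after the sequences were read. Rspo1 is at chr4:124986180-124986429 on the plus strand, Ccdc102a at chr8:94918099-94918348 on the minus strand, Zc3h12b at chrX:95711428-95711677 on the plus strand and Etnk2 at chr1:133363322-133363571 on the plus strand. Armcx1 is at chrX:134717688-134717937, As3mt at chr19:46707208-46707457 and Pdgfd at chr9:6168236-6168485, all on the plus strand.
Rspo1: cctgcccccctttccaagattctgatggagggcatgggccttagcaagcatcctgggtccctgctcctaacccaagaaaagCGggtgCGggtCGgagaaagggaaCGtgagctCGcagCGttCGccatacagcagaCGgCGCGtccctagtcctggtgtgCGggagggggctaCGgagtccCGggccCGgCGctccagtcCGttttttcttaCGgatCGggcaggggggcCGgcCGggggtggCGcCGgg
Ccdc102a: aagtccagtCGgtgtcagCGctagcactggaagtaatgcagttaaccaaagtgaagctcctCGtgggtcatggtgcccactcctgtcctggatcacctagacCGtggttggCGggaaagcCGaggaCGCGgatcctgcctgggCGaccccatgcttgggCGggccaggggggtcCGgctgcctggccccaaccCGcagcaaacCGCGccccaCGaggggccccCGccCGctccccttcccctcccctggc
Zc3h12b: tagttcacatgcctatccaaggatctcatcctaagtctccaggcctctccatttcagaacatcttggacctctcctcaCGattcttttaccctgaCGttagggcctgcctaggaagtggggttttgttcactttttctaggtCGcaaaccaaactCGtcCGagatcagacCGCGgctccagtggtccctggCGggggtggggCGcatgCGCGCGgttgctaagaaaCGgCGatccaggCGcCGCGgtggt
Etnk2: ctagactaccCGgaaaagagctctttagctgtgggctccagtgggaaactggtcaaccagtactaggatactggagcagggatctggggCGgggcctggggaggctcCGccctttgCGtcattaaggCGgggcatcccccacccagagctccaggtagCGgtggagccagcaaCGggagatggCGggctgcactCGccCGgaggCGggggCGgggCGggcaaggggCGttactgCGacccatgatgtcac
Armcx1: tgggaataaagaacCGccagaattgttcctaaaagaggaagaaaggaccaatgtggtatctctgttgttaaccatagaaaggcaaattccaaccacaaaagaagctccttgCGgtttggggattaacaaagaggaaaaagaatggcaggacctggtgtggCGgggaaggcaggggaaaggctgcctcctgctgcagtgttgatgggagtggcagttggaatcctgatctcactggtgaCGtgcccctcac
As3mt: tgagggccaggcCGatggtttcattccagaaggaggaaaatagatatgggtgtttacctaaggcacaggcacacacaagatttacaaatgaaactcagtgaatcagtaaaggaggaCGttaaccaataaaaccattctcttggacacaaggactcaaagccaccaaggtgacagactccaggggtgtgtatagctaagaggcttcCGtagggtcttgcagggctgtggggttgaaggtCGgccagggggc
Pdgfd: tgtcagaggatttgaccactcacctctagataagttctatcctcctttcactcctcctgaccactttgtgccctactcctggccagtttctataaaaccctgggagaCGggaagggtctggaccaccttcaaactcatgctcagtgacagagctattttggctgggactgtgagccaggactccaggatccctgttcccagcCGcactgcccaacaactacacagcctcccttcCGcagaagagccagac

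The bases printed for Rspo1 hold 22 CpG, those for Ccdc102a 17, Zc3h12b 17 and Etnk2 15. Those for Armcx1 hold 4, As3mt 4 and Pdgfd 3. Among the 36 windows of members the median GC content was 58.0%, against 61.0% over 11472 windows of tested genes and 52.7% over all 32851 windows. The median ratio of observed to expected CpG was 0.51, against 0.761 for tested genes and 0.384 for all windows. A window was called CpG-rich at a GC content of at least 55% and a ratio of at least 0.65, which 10 windows of members met (27.8%), against 57.1% of windows of tested genes and 28.1% of all. Counted by gene, 9 of 30 members, all outside chromosome 18, had a CpG-rich window, against 64.5% of 8959 tested genes. On this measure the members sat nearer to all genes than to the genes tested in these cells, a difference that was not tested, and they were mixed: Chn1 and Fam217b had windows with ratios of 1.07 and 1.03, and Cst12, a gene of the male reproductive tract, had 0.144.

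**Figure D1:**
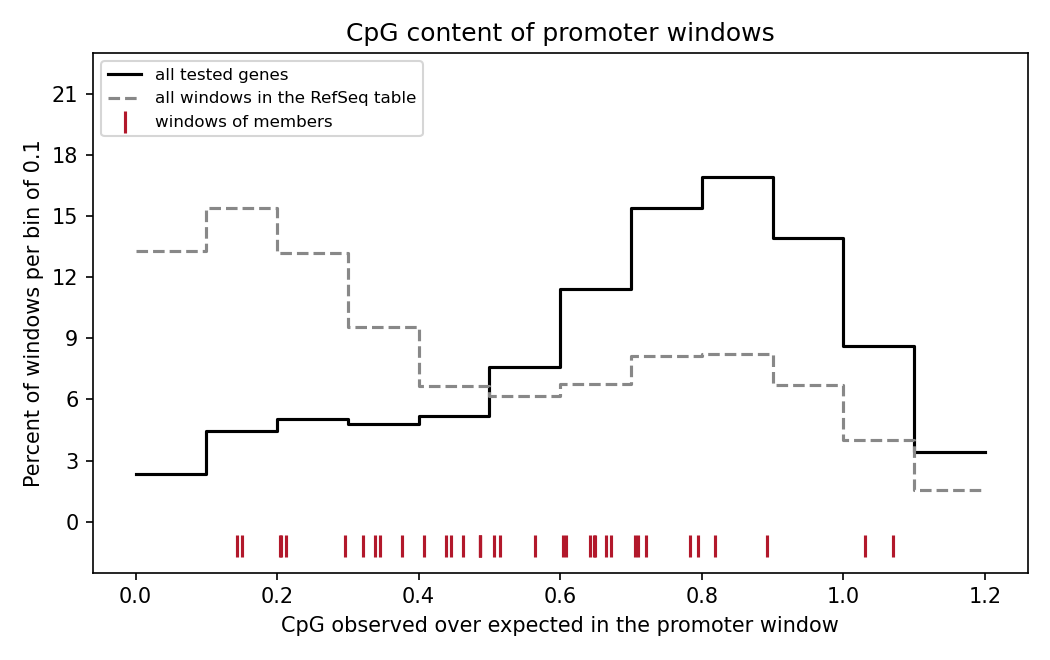
Share of promoter windows (percent, vertical axis) by the ratio of observed to expected CpG (horizontal axis, bins of 0.1) for tested genes (solid line) and for all RefSeq windows (dashed line), with a red tick for each of the 36 windows of members. The ticks spread from 0.144 to 1.07, around a median of 0.51, while the windows of tested genes gather at higher ratios around a median of 0.761.

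Short motifs were searched as letters on both strands of the windows. TATAAA, the TATA box core, was in 11.1% of members' windows, 6.93% of those of tested genes and 13.6% of all. CCAAT was in 41.7%, 38.0% and 37.4%. GGGCGG, the GC box, was in 52.8%, 63.5% and 35.7%, and every copy of it holds a CpG, so its share is tied to CpG content. The p53 consensus decamer was found in 2 windows of members, those of Ttc38 and Znrf4 (5.56%), against 6.76% for tested genes and 8.36% for all windows. Pdgfd, whose printed sequence has few CpG, was among the 4 windows with TATAAA.

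The 45 genes were counted at low levels in Trp53_KO. Their mean CPM ranged from 1.08 (Ablim3) to 15.1 (Scrn1) with a median of 2.1, against a median of 28.9 over all tested genes, and none was above that median. Only 5 members reached 5 CPM and 19 were under 2 CPM. Per kilobase of exon, known for 37 members, the level ran from 0.124 CPM per kb (Igsf9b) to 4.34 (Cst12), with a median of 0.578 against 8.53 for tested genes. All 45 together gave 2543, 2101 and 2560 counts in Trp53_KO replicates 1 to 3 and 15, 11 and 14 counts in Trp53_WT, or 130, 127 and 136 CPM against 1.01, 0.544 and 0.75. The 5 highest members held 29.6% of the counts in Trp53_KO. In bulk RNA, fewer cells with a gene switched on and less RNA per cell cannot be told apart.

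In Trp53_WT, 22 members had 0 counts in all 3 libraries, 12 had 1 count, 5 had 2 and 6 had 3. The stray counts were spread over the libraries, since 12, 9 and 12 members had at least 1 count in Trp53_WT replicates 1, 2 and 3. Where a gene was at 0, its fold is a lower bound set against a floor of 3 counts for the group. Where it had 1 to 3 counts, a depth-scaled ratio is given with its exact 95% interval. Both are taken from counts summed over the libraries of a group, so they cover counting error only and not the spread between libraries. The thresholds used the same sums, so the bounds and intervals do not allow for the choice of the genes and are descriptions. PCR copies cannot be recognized without molecular identifiers.

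**Figure D2:**
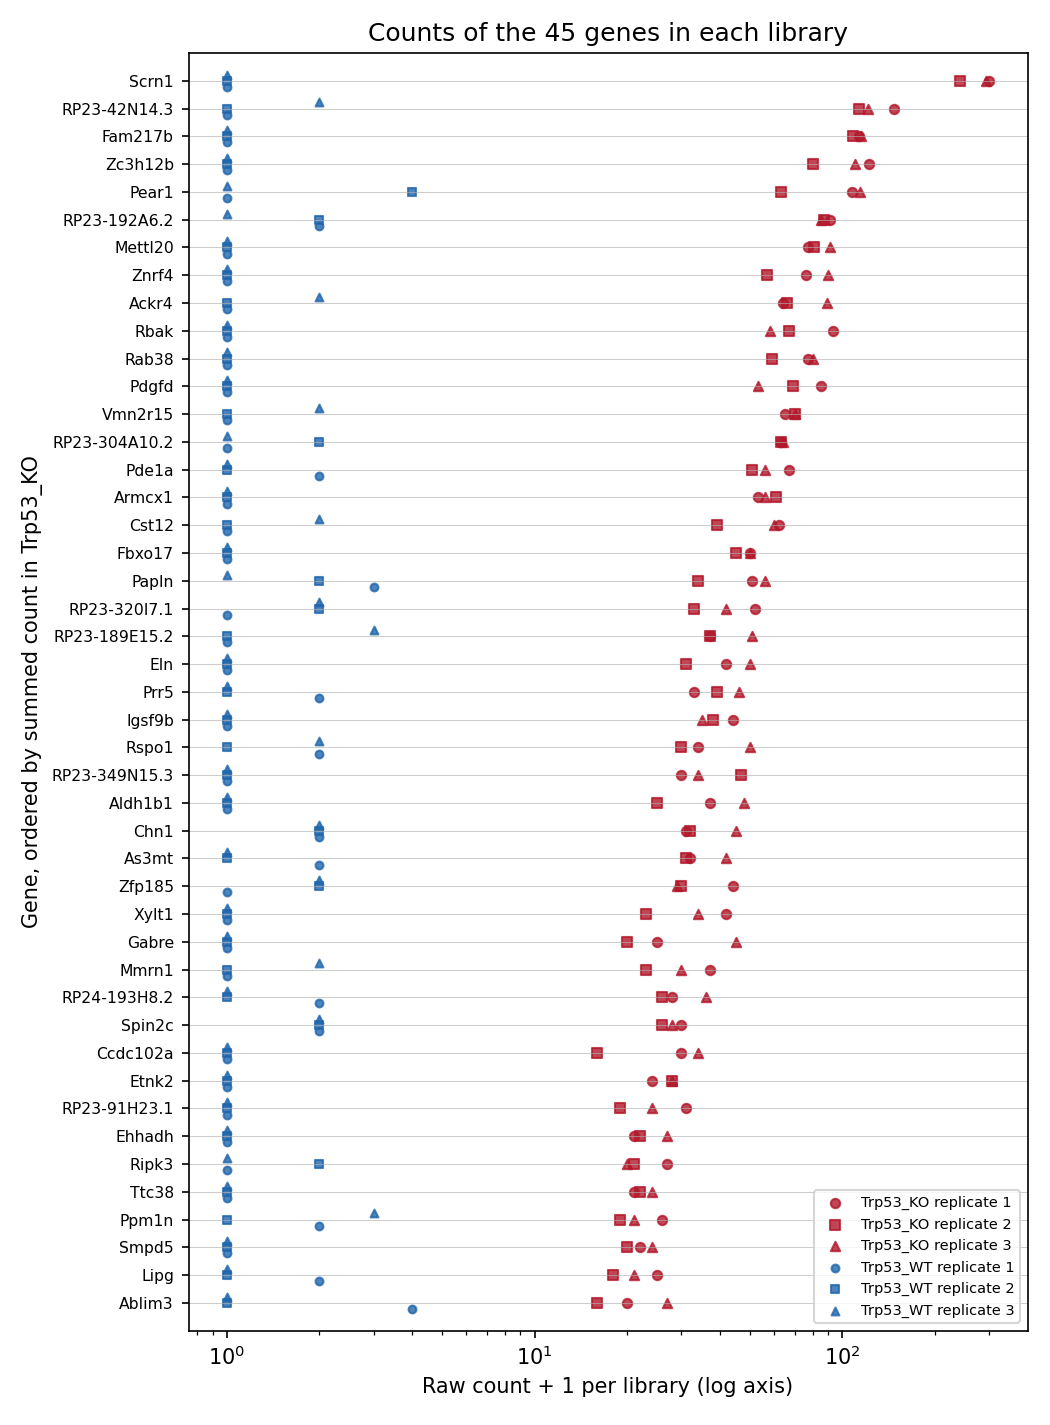
Raw count plus 1 per library (log axis) for each of the 45 genes, ordered by summed count in Trp53_KO, with Trp53_KO libraries in red and Trp53_WT in blue and a marker shape for each replicate number. Every Trp53_WT point lies at 3 counts or fewer and every Trp53_KO point at 15 or more. The choice of the genes fixed the sums over each group, not the single Trp53_KO points.

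The thresholds cut through a continuum. Just inside the Trp53_KO limit were Ablim3 with 60 counts, Lipg with 61 and Ppm1n and Smpd5 with 63, and just outside were Cnn1 with 57, Dhtkd1 and Fbxl7 with 54 and Hhatl with 52. Of the 6 members at the Trp53_WT limit of 3 counts, Pear1, Papln, Chn1 and Spin2c had the most counts in Trp53_KO. Of the genes just outside it, at 4 counts, those with the most were Ptprm with 632 counts in Trp53_KO, C1qtnf7 with 285, Smarca1 with 274 and Sez6l with 206.

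The spread among the Trp53_KO libraries was not used by the thresholds. The highest library exceeded the lowest by a median factor of 1.37 over the members, against 1.15 over the 13591 tested genes with no 0 in Trp53_KO, and the members' low counts carry more counting error. Spin2c was the most even, at 1.48, 1.51 and 1.43 CPM (1.05-fold), and Gabre the least, at 1.22, 1.15 and 2.34 CPM (2.04-fold). Trp53_KO replicate 3 was the highest of the 3 libraries for 20 members, replicate 1 for 13 and replicate 2 for 12, where the shares over tested genes were 34.2%, 29.7% and 36.1%. No member was carried by a single Trp53_KO library.

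The genes of matrix and proteoglycans included Eln, a textbook product of the vessel wall. Eln encodes tropoelastin, the monomer of elastic fibres, and was at 2.09, 1.81 and 2.6 CPM in Trp53_KO and at 0 counts in every Trp53_WT library, at least 39.2-fold higher. Papln, a matrix protein with protease inhibitor domains, was at 2.55, 1.99 and 2.92 CPM, against 2, 1 and 0 counts in Trp53_WT (ratio 45.1, interval 15.1 to 221). Xylt1 adds the xylose on which glycosaminoglycan chains of proteoglycans are built, and it was at 2.09, 1.33 and 1.75 CPM against 0 counts (at least 31.4-fold).

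Of the signalling ligands, Pdgfd, a platelet-derived growth factor that must be cut to become active, was at 4.28, 4.1 and 2.76 CPM in Trp53_KO and 0 counts in Trp53_WT, at least 66.6-fold higher. Rspo1, which strengthens Wnt signalling by way of Lgr receptors and takes part in ovary development, was at 1.68, 1.75 and 2.6 CPM, against 1, 0 and 1 counts (ratio 54.4, interval 14.7 to 455). Its highest library was replicate 3, and replicates 1 and 2 lay close together. Mmrn1, the multimerin of platelets and endothelium, was at 1.83, 1.33 and 1.54 CPM against 0, 0 and 1 counts, and Cst12, a cystatin, at 3.11, 2.29 and 3.14 CPM against 0, 0 and 1 counts. Lipg, endothelial lipase, was near the lower limit at 1.22, 1.03 and 1.06 CPM.

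Cell surface genes were as varied. Ackr4, an atypical chemokine receptor that takes up chemokines without classical signalling, was at 3.21, 3.92 and 4.68 CPM in Trp53_KO against 0, 0 and 1 counts in Trp53_WT (ratio 212, interval 37.6 to 8400). Pear1, a receptor of platelets and endothelium, was at 5.4, 3.74 and 6 CPM against 0, 3 and 0 counts (ratio 91.8, interval 31.1 to 448), so that all its Trp53_WT counts came from replicate 2. Vmn2r15, a vomeronasal pheromone receptor gene, was at 3.26, 4.16 and 3.67 CPM against 0, 0 and 1 counts. Igsf9b, a synaptic adhesion protein, was at 2.19, 2.23 and 1.81 CPM and Gabre, a GABA-A receptor subunit, at the values given above, both with 0 counts in Trp53_WT. The wide intervals for genes with 1 count in Trp53_WT leave the size of their ratio poorly known.

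Vmn2r15 belongs to a family read in the vomeronasal organ and Gabre to the ion channels, and their families differed in how many genes had counts. Of 1545 other olfactory and vomeronasal receptor genes, 1411 were at 0 in all libraries, 8 were tested, 3 rose and 1 fell. Of the other ion channel subunit genes, 48 were tested, 19 rose and 17 fell, and 112 were at 0 in all libraries. Over all tested genes, 14.1% rose and 16.1% fell.

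Intracellular signalling genes were led by Rab38, a small GTPase of lysosome-related organelles such as melanosomes, at 3.87, 3.5 and 4.2 CPM in Trp53_KO and 0 counts in Trp53_WT (at least 69.6-fold). Pde1a, a calmodulin-dependent cyclic nucleotide phosphodiesterase, was at 3.36, 3.02 and 2.92 CPM against 1, 0 and 0 counts. Prr5, a subunit of the kinase complex mTORC2, was at 1.63, 2.29 and 2.39 CPM against 1, 0 and 0 counts. These Trp53_KO libraries lay within 1.5-fold of each other for all 3 genes. Chn1, a GTPase-activating protein for Rac, had 1 count in each Trp53_WT library and 1.53, 1.87 and 2.34 CPM in Trp53_KO (ratio 34.3, interval 11.4 to 169).

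Ripk3, the kinase that drives necroptosis, had 26, 20 and 19 counts in Trp53_KO (1.32, 1.21 and 1.01 CPM) and 0, 1 and 0 in Trp53_WT, so that the ratio was 63.7 (interval 11 to 2550). Znrf4 and Fbxo17, which act in ubiquitin ligation, had 0 counts in Trp53_WT. Znrf4 was at 3.82, 3.38 and 4.73 CPM in Trp53_KO and Fbxo17, a substrate adaptor, at 2.5, 2.65 and 2.6 CPM, where its 3 libraries nearly coincided (1.06-fold). Zfp185, an actin-associated LIM domain protein, was at 2.19, 1.75 and 1.49 CPM against 0, 1 and 1 counts. Ablim3, another actin-binding LIM protein, had 3 counts in Trp53_WT replicate 1 and 0 in replicates 2 and 3, and Ppm1n, a protein phosphatase, had 1, 0 and 2.

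Enzymes of metabolism made up another set. Mettl20, named Etfbkmt in current annotation, methylates a mitochondrial electron transfer flavoprotein and was at 3.87, 4.83 and 4.78 CPM in Trp53_KO with 0 counts in Trp53_WT (at least 80.4-fold). Aldh1b1, a mitochondrial aldehyde dehydrogenase, was at 1.83, 1.45 and 2.5 CPM against 0 counts (at least 35-fold). As3mt, which methylates arsenic, was at 1.58, 1.81 and 2.18 CPM against 1, 0 and 0 counts. Etnk2 (ethanolamine kinase), Ehhadh (peroxisomal fatty acid oxidation) and Smpd5 (a sphingomyelinase) all had 0 counts in Trp53_WT and means of 1.41, 1.22 and 1.15 CPM in Trp53_KO. The Trp53_KO libraries of Etnk2 were at 1.17, 1.63 and 1.43 CPM. Other cytochrome P450 and aldehyde dehydrogenase genes changed in both directions, with 11 higher and 9 lower of 28 tested. The shares over all tested genes were 14.1% higher and 16.1% lower.

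Genes acting on chromatin or RNA included Zc3h12b, of the Regnase family of RNA-cleaving proteins, at 6.16, 4.76 and 5.79 CPM in Trp53_KO and 0 counts in Trp53_WT (at least 101-fold). Rbak, a KRAB zinc finger protein, was at 4.69, 3.98 and 3.03 CPM with 0 counts in Trp53_WT (at least 70.2-fold). Spin2c, of the spindlin family of histone readers, had 1 count in each Trp53_WT library. Among 365 tested genes whose symbols begin with Zfp, Zfp185 left aside, 26 rose and 42 fell, beside 14.1% and 16.1% of all tested genes.

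Some members, the highest by count among them, are of less known function. Scrn1, a secernin, had 299, 240 and 291 counts in Trp53_KO (15.2, 14.5 and 15.5 CPM) and 0 in every Trp53_WT library, at least 271-fold higher. Fam217b was at 5.71, 6.45 and 6.06 CPM against 0 counts (at least 109-fold). Armcx1, an armadillo-repeat protein of the mitochondrial surface, was at 2.65, 3.62 and 2.92 CPM against 0 counts (at least 54.6-fold). Ccdc102a and Ttc38 had 77 and 64 counts in Trp53_KO and 0 in Trp53_WT, and Ccdc102a was at 1.48, 0.905 and 1.75 CPM in Trp53_KO. Scrn1 alone accounted for 830 of the members' counts, and its 3 libraries differed by 1.07-fold.

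For many of these genes a close relative was already present in Trp53_WT. The relatives were picked by hand from gene families, 50 genes for 23 members, without use of their values for most and with some already known. Of these, 31 were tested, 10 rose and 3 fell, where the shares over all tested genes were 14.1% and 16.1%, and 1 fell without Trp53_WT replicate 2 or without Trp53_WT replicate 3. Scrn3 was at 13.4, 14 and 13.6 CPM in Trp53_KO and 12.4, 13.8 and 13.3 in Trp53_WT, so its groups overlapped. Etnk1 was at 218 ± 12.9 CPM in Trp53_KO and 205 ± 8.61 in Trp53_WT (mean ± SD, n = 3 each), Chn2 at 33.6 and 34.6, Xylt2 at 31.3 and 33.9 and Ripk1 at 85.7 and 92.7, and none of the 4 was called.

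Those that rose were Prr5l, Armcx3, Igsf9, Aldh1a1, Aldh1a3, Ripk2, Ablim1, Pdgfb, Pdgfc and Lpl. The call of Ablim1 was lost without Trp53_KO replicate 3 (edgeR adjusted p = 0.0506), that of Lpl without any library but Trp53_WT replicate 1 (edgeR adjusted p between 0.0626 and 0.0657), and that of Aldh1a3 without any Trp53_KO library or without Trp53_WT replicate 2 (edgeR adjusted p between 0.0592 and 0.161). Prr5l, the other PRR5-type mTORC2 subunit, was at 14.7, 14.8 and 15.7 CPM in Trp53_KO and 0.944, 0.84 and 1.34 in Trp53_WT, a log2 fold change of 3.85 ± 0.16 (SE, n = 3 each, edgeR adjusted p = 1.58e-07). Armcx3, which lies 34678 bases from Armcx1 on chromosome X, was at 4.79, 5.25 and 4.84 CPM against 0.54, 0.642 and 0.482 (3.13 ± 0.19, edgeR adjusted p = 1.7e-06). Igsf9, relative of Igsf9b, was at 44.1, 35.7 and 48.6 CPM against 11, 9.98 and 10.4 (2.04 ± 0.12, edgeR adjusted p = 1.59e-06). Aldh1a1, which makes retinoic acid, rose by 1.96 ± 0.07 on the log2 scale (edgeR adjusted p = 4.04e-08). For these 4 the groups did not overlap.

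Rab32, the nearest relative of Rab38, went the other way, at 41.5 CPM in Trp53_KO and 58.3 in Trp53_WT (log2 -0.49 ± 0.1, SE, edgeR adjusted p = 0.00408). Scrn2, relative of Scrn1, and Znrf1, relative of Znrf4, also fell (log2 -0.39 ± 0.1 and -0.31 ± 0.09, edgeR adjusted p = 0.0187 and 0.0217). Both calls were lost without Trp53_KO replicate 2 (edgeR adjusted p = 0.0578 and 0.0685) and without Trp53_WT replicate 2 or 3. Scrn2 also lost its call without Trp53_KO replicate 1, and Znrf1 without Trp53_KO replicate 3. Ackr3, another atypical chemokine receptor, had 37 counts in Trp53_WT and 0 in Trp53_KO. Within the Armcx group the members of the family differed: Armcx2 had 8 counts in Trp53_KO and 0 in Trp53_WT, Armcx5 was at 12.9 and 11.4 CPM and not called, and Armcx6 was at 0 in all libraries.

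**Figure D3:**
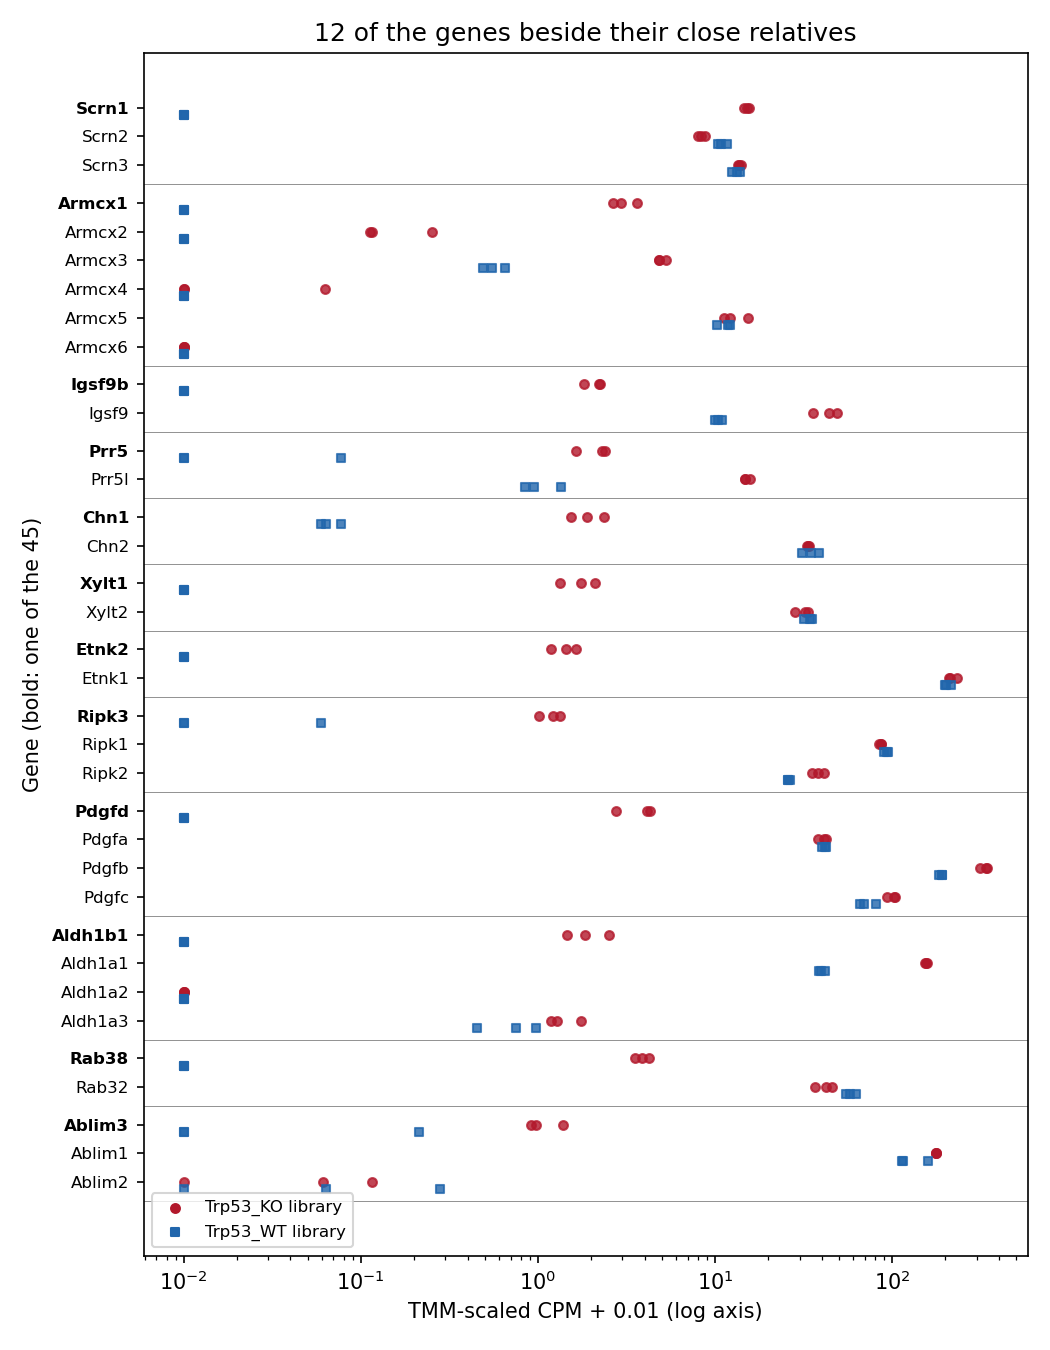
TMM-scaled CPM plus 0.01 (log axis) in each Trp53_KO library (red circles) and Trp53_WT library (blue squares, drawn slightly lower) for 12 of the 45 genes, in bold, and their close relatives. Scrn3, Chn2, Xylt2 and Etnk1 have both groups at like levels, while Prr5l, Igsf9, Aldh1a1 and Armcx3 stand higher in Trp53_KO.

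The partners of the members in their pathways were looked up from lists of known ligands, receptors, subunits and enzymes written after the members were known, 101 genes in all. Of 82 tested, 16 rose and 17 fell, beside shares of 14.1% and 16.1% over all tested genes. The lists differed from each other in direction, and the same shares over all tested genes stand beside each list below.

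Rspo1 acts through the receptors Lgr4, Lgr5 and Lgr6 and the ubiquitin ligases Rnf43 and Znrf3, which they restrain. Lgr4 was at 381, 374 and 386 CPM in Trp53_KO and 260, 237 and 241 in Trp53_WT (log2 0.63 ± 0.06, SE, edgeR adjusted p = 4.1e-05). Lgr6 was at 6.93, 6.94 and 5.1 CPM against 61.9, 52.5 and 50 (log2 -3.12 ± 0.14, edgeR adjusted p = 1.88e-07), and Lgr5 was at 0 in all libraries. Rnf43 was higher, at 3.92 against 0.595 CPM (2.71 ± 0.28, edgeR adjusted p = 6.88e-05), and Znrf3 was not called (0.04 ± 0.12). The receptors thus moved in opposite directions. Of the other R-spondins, Rspo2 had 1 count in all and Rspo3 and Rspo4 had 0.

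Pdgfd binds the receptor Pdgfrb, which had 1 count in Trp53_KO and 0 in Trp53_WT. Pdgfra, the other platelet-derived growth factor receptor, rose from 0.798 ± 0.0976 CPM to 2.16 ± 0.673 (SD, n = 3 each; log2 1.44 ± 0.29, SE, edgeR adjusted p = 0.00397). The ligands Pdgfb and Pdgfc rose by 0.81 ± 0.06 and 0.48 ± 0.09 on the log2 scale (edgeR adjusted p = 8.99e-06 and 0.00295), and Pdgfa was not called (-0.02 ± 0.08). Plau, the urokinase able to cut the pro-form of this ligand, rose by 0.54 ± 0.1 (edgeR adjusted p = 0.00351), and Plat was not called. Nrp1, a co-receptor, was at 206 CPM in Trp53_KO and 238 in Trp53_WT (log2 -0.21 ± 0.06, edgeR adjusted p = 0.0231), a call lost without any library but Trp53_WT replicate 1 (edgeR adjusted p between 0.0568 and 0.0869). In all, 4 of the 7 tested genes of this list rose and 1 fell.

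Around Eln, the genes of elastic fibre assembly changed in both directions, 4 higher and 5 lower of 12 tested. Of the 5, Loxl3 (log2 -0.26) lost its call without any library but Trp53_WT replicate 1 (edgeR adjusted p between 0.0882 and 0.192). Fbln5, which tethers tropoelastin to the cell surface, was at 13.7, 13.1 and 15.4 CPM in Trp53_KO and 0.337, 0.296 and 0.375 in Trp53_WT (log2 5.36 ± 0.18, edgeR adjusted p = 3.62e-08). Emilin1, an elastic fibre glycoprotein, rose by 3.07 ± 0.19 (edgeR adjusted p = 1.7e-06) and Loxl1, a cross-linking oxidase, by 1.7 ± 0.21 (edgeR adjusted p = 0.00022). Loxl4 fell by 1.19 on the log2 scale and Ltbp2 fell by 2.5 (edgeR adjusted p = 2.32e-06 and 0.00172). The fibrillin genes gave no like pattern, with Fbn1 not called (-0.26 ± 0.15) and Fbn2 at 0 in all libraries.

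Around Ripk3, 4 of 12 tested necroptosis genes fell and 8 were not called by edgeR. Casp8, the protease that restrains necroptosis, was at 48.1, 48.5 and 46.5 CPM in Trp53_KO and 61.8, 63.3 and 64.8 in Trp53_WT (log2 -0.41 ± 0.07, edgeR adjusted p = 0.00149). Cflar, its catalytically inactive partner, fell by 0.63 (edgeR adjusted p = 0.000145) and Tnfrsf1a, a receptor for TNF, fell by 0.5 (edgeR adjusted p = 0.00697). Mlkl, the effector that Ripk3 phosphorylates, was at 47.8 against 56.9 CPM (log2 -0.25 ± 0.07, edgeR adjusted p = 0.0213), a call lost without any of Trp53_KO replicates 1 and 3 or Trp53_WT replicates 2 and 3 (edgeR adjusted p = 0.105, 0.0551, 0.0782 and 0.0596). Zbp1, the Z-form nucleic acid sensor that engages Ripk3, had 13 counts in Trp53_KO and 23 in Trp53_WT and was below the filter.

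Of the ligands Ackr4 takes up, Ccl19 and Ccl21a were at 0 in all libraries and Ccl25 was at 13.2 CPM in Trp53_KO and 16.5 in Trp53_WT, not called. Mtor rose by 0.53 ± 0.09 on the log2 scale (edgeR adjusted p = 0.0021), while the mTORC2 subunits Rictor and Mapkap1 were not called (-0.02 ± 0.06 and -0.04 ± 0.08). In the peroxisomal list of Ehhadh 2 of 12 tested genes fell, beside 16.1% of all tested genes, and 10 were not called. Acox3 was among those that fell (edgeR -0.66 ± 0.09, adjusted p = 0.000356). The melanosome genes Tyr and Tyrp1, known for needing Rab38 or Rab32, were at 0 in all libraries, and 3 of the 9 tested genes of that list fell. Etfb, the substrate of Mettl20, its dimer partner Etfa and the linked Etfdh were not called. In the glycosaminoglycan linker list around Xylt1, 1 of 5 fell, Fam20b, and 4 were not called. The edgeR call of Fam20b was lost without any library but Trp53_WT replicate 1 (adjusted p between 0.0612 and 0.158). In the ethanolamine list around Etnk2, 3 of 10 rose and 7 were not called. Of those 3, Pcyt1b (log2 2.45 ± 0.15) kept its call without each library. Pcyt1a lost it without any library but Trp53_WT replicate 1 (edgeR adjusted p between 0.0644 and 0.079), and Pemt without Trp53_KO replicates 1 or 3 or Trp53_WT replicate 2 (edgeR adjusted p = 0.0768, 0.0732 and 0.074).

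By position, the 37 members that GENCODE M21 (GRCm38) placed were all protein coding, as were 96.0% of tested genes with a position. Chromosome X held 5 of them, Zc3h12b, Zfp185, Gabre, Armcx1 and Spin2c, or 13.5% against 3.18% of tested genes, a difference that was not tested. Chromosomes 2 and 7 held 4 each, and the autosomes 10, 11 and 13 held 0. Members were mostly scattered. Gabre and Zfp185 lay 0.713 Mb apart on chromosome X and Prr5 and Ttc38 1.13 Mb apart on chromosome 15, and these were the pairs within 2 Mb among the members that GENCODE placed. A clone-named member, RP23-349N15.3, had a repeat row at chr9:8021987-8022137 in the authors' deposited table, on the chromosome of Pdgfd (chr9:6168584-6378850).

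The nearest gene with a count on each side, within 100 kb, was found for 30 members, 53 genes in all. None of these neighbours met the thresholds. Of 32 tested, 6 were called higher (18.8%) and 5 lower (15.6%), beside 14.1% and 16.1% over all tested genes, and their median log2 fold change was -0.10. Scrn1 on chromosome 6 (54501173 to 54566489) lay beside Fkbp14, at 18.4 and 21.8 CPM and not called. Zc3h12b (chromosome X, 95711678 to 95932637) lay 2698 bases from Las1l, at 61 and 55.5 CPM, not called.

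The 11 called neighbours went in both directions. Besides Armcx3, Adgrg1 near Ccdc102a was at 39.7 CPM against 7.11 (log2 2.49 ± 0.15, SE), Oplah, which overlaps Smpd5 on the opposite strand, at 45.3 against 13.9 (1.71 ± 0.09), and Dennd5b near Mettl20, Gnl2 near Rspo1 and Sh3tc2 near Ablim3 rose by 0.57, 0.5 and 0.42. Among the lower ones were Map3k13 near Ehhadh (-1.02), Rtn2 near Ppm1n (-0.98), Gtse1 near Ttc38 (-0.72) and Amn1 near Mettl20 (-0.27), whose edgeR call was lost without Trp53_KO replicates 1 or 2 or Trp53_WT replicate 2 (adjusted p = 0.135, 0.0577 and 0.109). Ppp1r3d, 52 bases from Fam217b and read in the opposite direction, had 33 counts in Trp53_KO and 0 in Trp53_WT, and Cst11 near Cst12 had 16 and 0. Neither reached the threshold of 60 counts.

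Members that overlap a gene on the opposite strand need care, since the strand setting of the counting is not known from the labels. Reads from the bases that a pair shares may then not be told apart. Smpd5 overlaps Oplah, Ackr4 overlaps Acad11 (1077 counts in Trp53_KO and 1138 in Trp53_WT), Chn1 overlaps Chn1os3 (29 and 6 counts) and Scrn1 overlaps Wipf3 (14 and 2 counts). For Smpd5 the member had 63 counts beside 2503 of its partner in Trp53_KO, and 0 beside 745 in Trp53_WT. Ackr4 had 1 count in Trp53_WT beside the 1138 of Acad11. How far reads of a partner entered a member's counts was not tested. For Scrn1 the partner's counts were far fewer than its own.

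**Figure D4:**
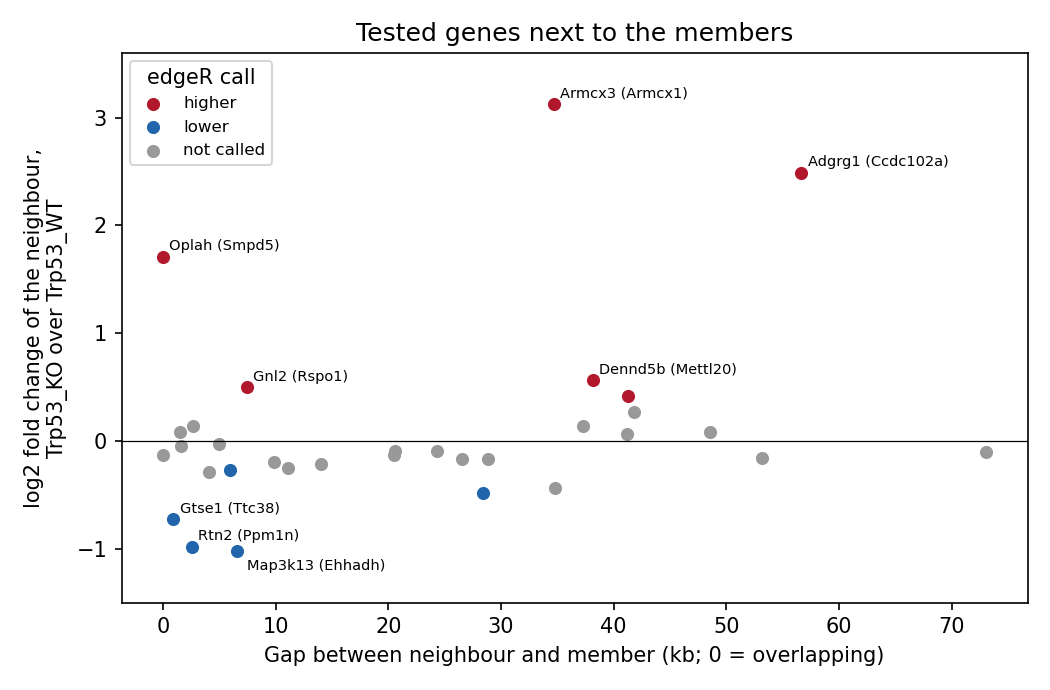
Log2 fold change of each tested neighbour (vertical axis) by the gap in kb to the member it lies beside (horizontal axis, 0 for overlapping genes), coloured by the edgeR call and labelled, with the member in brackets, where called with a log2 fold change of at least 0.5 in either direction. Most points lie near 0, around a median of -0.10, and Armcx3, Adgrg1 and Oplah stand highest at 3.13, 2.49 and 1.71.

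The authors' deposited table of repeats gives a log2 fold change and an FDR for each repeat locus and read direction, with no values by library. It assigned 172 rows to 35 members. The authors' deposited table called 22 of them (12.8%) higher in Trp53_KO with an FDR below 0.05, in 13 members, and 0 lower, against 0.388% higher and 0.284% lower of all 773731 rows. Rows within a gene that is read can count that gene's own RNA, and they come from the libraries that chose the members, so nothing is read from this share. Of the 172 rows 142 had a fold change above 0 in the authors' deposited table, with a median of 3.6 on the log2 scale. Of 136 rows of members with a position, 90 were in the direction of the member, and the higher rows were in that direction in 16 cases and in the opposite direction in 0.

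What the rows show is which repeats the authors assigned to these genes by position. Whether each lies in the RNA of its gene was not tested. By class the higher rows were 6 of long terminal repeats (LTR), 5 SINE, 3 LINE, 1 DNA transposon, 4 simple repeats, 2 of low complexity and 1 satellite. The authors' deposited table placed 12 of them in 3′ untranslated regions, 6 in 5′ untranslated regions and 4 in introns. For Fbxo17 all 3 rows were higher in the authors' deposited table, an L1ME1 (log2 5.42, FDR 0.00028), an ID_B1 (6.08, FDR 0.00027) and a B2_Mm2 at its 3′ end (chr7:28737958-28738144, 6.12, FDR 0.00017). For Rbak 4 of 9 rows were higher, among them an MMSAT4 satellite (chr5:143173914-143174532) at 7.25 in the authors' deposited table (FDR 1.6e-11) and 2 intronic MTE2a elements at 5.42 and 4.96. Mettl20 had 3 higher rows of 20 in the authors' deposited table, led by a B1_Mur2 at 6.52 (FDR 2.1e-08).

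For Vmn2r15 both rows were intronic in the authors' deposited table, a low-complexity stretch at 6.73 (FDR 2.7e-09) and a simple repeat at 4.42 (FDR 9.1e-05). Zc3h12b, a long gene, had 40 rows, of which 0 passed an FDR of 0.05. Scrn1, the member with the most counts, had 1 row, and it did not pass.

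**Figure D5:**
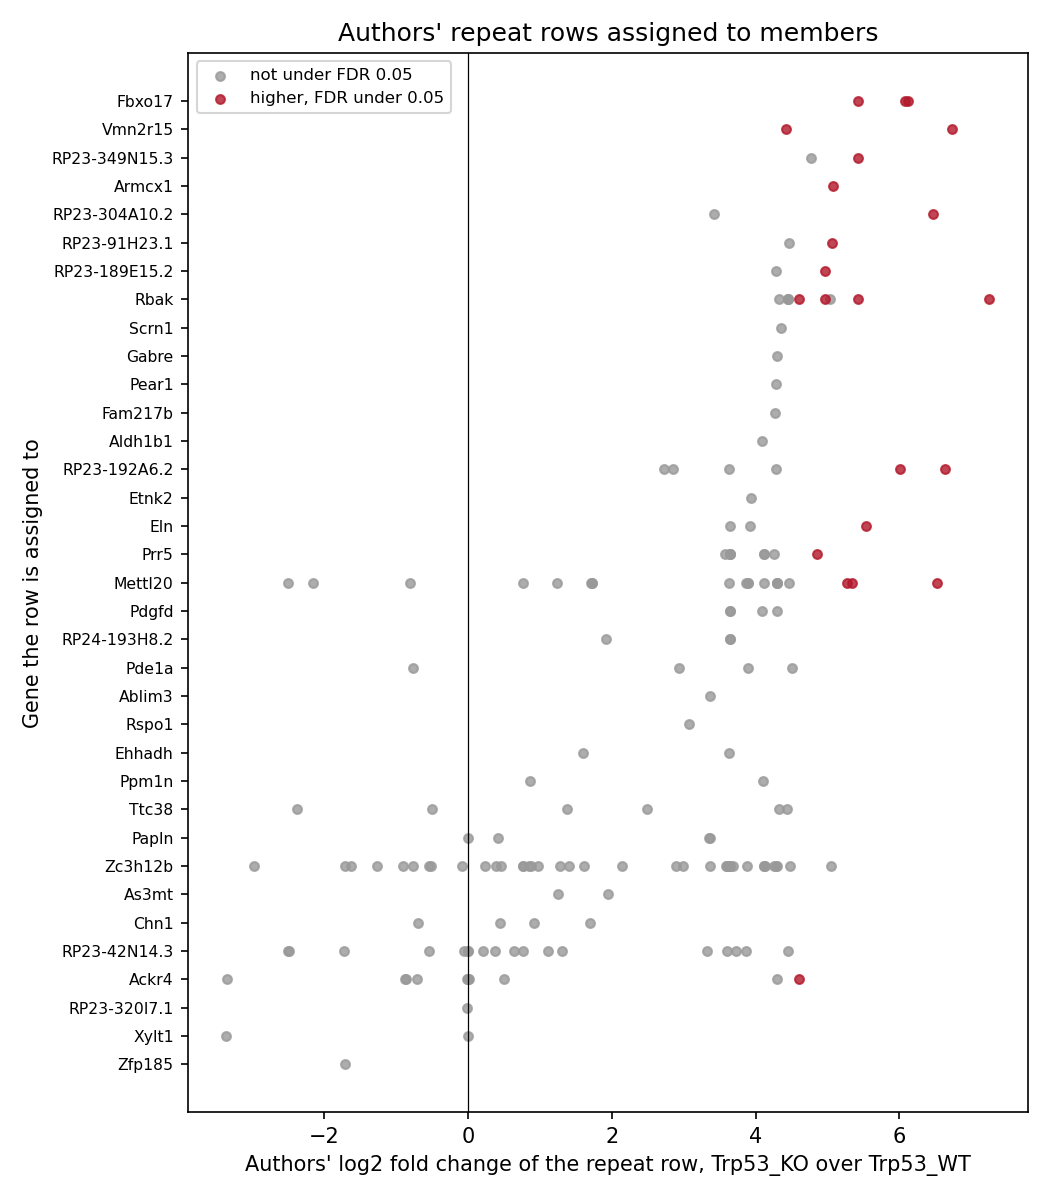
The authors' log2 fold change (horizontal axis) of each of the 172 repeat rows assigned to a member (vertical axis, genes ordered by the median of their rows), in red where higher at an FDR under 0.05 and in grey otherwise. All 22 red points lie above 4, and the rows of Zc3h12b and RP23-42N14.3 spread on both sides of 0 with none in red.

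The remaining 8 members are gene models known by clone names, which GENCODE M21 does not carry, and they could be placed only through the repeat rows. RP23-42N14.3 was the highest, with 146, 112 and 120 counts in Trp53_KO and 0, 0 and 1 in Trp53_WT (ratio 370, interval 66.1 to 14700). RP23-192A6.2 had 90, 86 and 84 counts against 1, 1 and 0 (ratio 127, interval 34.9 to 1060). The other 6 had between 71 and 187 counts in Trp53_KO. Of 2252 other predicted models tested, 159 rose and 189 fell, beside 14.1% and 16.1% of all tested genes.

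The authors' deposited table assigned to RP23-192A6.2 only rows of a provirus-like element of the ERVK group of endogenous retroviruses, which are remnants of ancient germline infections. Its internal part, annotated ERVB4_1-I_MM-int, spans 8291 bases (chr2:155018389-155026679, mm10) and was at 6.63 in the forward direction and 6.01 in the reverse direction on the log2 scale in the authors' deposited table (FDR 3e-48 and 2.3e-56). The flanking repeats, ERVB4_1B-LTR_MM at chr2:155017864-155018385 and chr2:155026680-155027201, were at 2.73 to 4.28 in the authors' deposited table and did not pass. Rows of both read directions thus passed over the internal part, whereas no row opposite to its gene passed for the members with an annotated strand. Reads in long terminal repeats can match many copies, and how such reads were counted is not given in the sources used here.

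Other clone-named models held single repeats that passed in the authors' deposited table: an L3 in RP23-304A10.2 (log2 6.46, FDR 2.4e-05), an ID_B1 in RP23-349N15.3 (5.43, FDR 0.006), an MLT1B in RP23-91H23.1 (5.06, FDR 0.0047) and a URR1A in a further clone-named model (4.96, FDR 0.0061). RP23-304A10.2 had 62, 62 and 63 counts in Trp53_KO, nearly the same in each library, and RP23-349N15.3 had 29, 46 and 33. Whether these models are genes of their own or ends of neighbouring transcripts was not tested.

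Markers of other cell types were looked at beside these members, because several of them are known from vessels, platelets or stroma. Of 14 endothelial markers 4 were tested, 2 rose and 2 fell, 5 were at 0 in all libraries, and their summed level was 48.3 to 55.7 CPM in Trp53_KO and 45.6 to 47.9 in Trp53_WT. Of 14 fibroblast and stromal markers 2 were tested and both rose, Dcn and Pdgfra, with 229 to 251 CPM against 101 to 108. Of 15 granulosa and theca markers 7 were tested, 4 rose and 3 were not called, with 489 to 514 CPM against 311 to 355. Of 22 immune markers 2 were tested, Cd14 fell and Cd68 was not called, with 8.34 to 10.4 CPM against 32.0 to 35.4. Of 41 germline and cancer-testis genes 4 were tested, 1 rose and 1 fell, with 12.3 to 13 CPM against 5.53 to 6.05. Over all tested genes, 14.1% were called higher and 16.1% lower. Within each list the markers differed. Of the endothelial ones Cdh5, Kdr and Emcn had 0 counts in every library. Pecam1 had 106 counts in Trp53_KO and 8 in Trp53_WT, Esam 1819 and 804, Robo4 15 and 1 and Plvap 16 and 3. The 2 that fell were Flt1, with 890 and 1587 counts, and Egfl7, with 46 and 84, and Vwf had 0 and 16. Lum and Fbln1 of fibroblasts had 0 counts, and Dcn had 12961 and 5466. Cyp11a1, Cyp19a1 and Fshr of granulosa cells had 0 counts, while Star had 1188 and 141, Inhbb 7974 and 1303 and Nr5a1 3172 and 1559. Of the immune markers Cd3e and Itgam had 0 counts and Ptprc 1 and 9. The part of other cells in the members' counts was not tested.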

How the data were processed

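The submitters' processing notes name mm10 as the build and STAR, featureCounts and edgeR as tools; their versions, the annotation and the strand setting were not given. Per the labels, libraries were stranded total RNA. Raw counts for each gene symbol were deposited by the authors, without normalization, with a table of repeats with a log2 fold change and an FDR, a p-value adjusted by the authors. The log base was checked against gene fold changes (median ratio 1.03 over 796 rows).

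Members and lists were chosen with earlier results of these data known. Of 41327 genes, 22583 had a count and 13651 passed filterByExpr. The edgeR 4.0.16 quasi-likelihood test (R 4.3.3, TMM, genotype as the only term, Benjamini-Hochberg, threshold 0.05) was fitted to all 6 libraries; SE are approximate. On simulated counts for this comparison (13464 genes) recovery was 82 of 98 at a log2 change of 1 and 100 of 100 at 2, with 17 false calls. Named genes followed a rule: every member without a clone name could be named, with values in each library for the 30 with the highest Trp53_KO sum and for members in a list; their relatives, partners and neighbours, the genes nearest the thresholds, and Trp53. Values in each library were also given for Ripk3 and Lipg, which lie below these 30. Neighbours were the nearest genes with a count within 100 kb. Alternatives were RLE and upper quartile scaling, other filters, a replicate block, DESeq2 1.42.0, limma-voom (limma 3.58.1), each library left out, and other thresholds and distances. Some results are not reported here.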

Additional observations from a re-analysis of the deposited data

How the results depend on the processing

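The number of genes meeting the thresholds after the named exclusions followed the limits: 85 with a Trp53_KO sum of at least 30, 22 with at least 120, 22 with a Trp53_WT sum of 0, 86 with at most 10, and 40 with counts scaled to the mean library total. Leaving out a library gave 42 to 51, against 45. There the limit over the libraries kept was lowered, to 40 counts without a Trp53_KO library and to 2 counts without a Trp53_WT library. Among neighbours, 10 rose with no filter beyond 1 count (53 tested), and 8 fell within 500 kb (43 tested); without a library 6 to 8 rose and 4 to 7 fell. Among repeat rows within 10 kb of members (309 rows), 20 were higher and 0 lower, 13 were higher at an FDR under 0.01, and 1 of 1608 rows within 50 kb was lower. Of 31 tested relatives, 7 to 10 rose and 1 to 4 fell without a library, with 1 lower without Trp53_WT replicate 2 and 1 without Trp53_WT replicate 3, against 3. Over all genes DESeq2 called 1855 higher and 1884 lower, limma-voom 1958 and 2194, against 1930 and 2200.

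With a replicate block the fit called 1771 higher and 2035 lower, 6 and 5 neighbours, and 47 and 33 genes of the fixed lists, against 48 and 33. No shared effect of the replicate number was seen: deviations of same-numbered libraries correlated at -0.0532, 0.077 and -0.122, and Trp53_KO replicates 1, 2 and 3 matched Trp53_WT replicates 3, 2 and 1 best. With 3 libraries per group, these values cannot show whether the libraries were paired. For 136 named or listed genes outside the members, 1668 of 1765 combinations of gene and alternative stayed on their side of the threshold, 71 lost the call, 26 gained it and 0 changed direction with a call. Mean levels of members moved by less than 1 SD in all 135 combinations of member and scaling. The median log2 fold change of all genes stayed between -0.022 and -0.002 under every scaling, filter, tool and left-out library tried. The alternatives for relatives, partners and single genes were chosen after seeing the data. Depth limits the members most: sums of 60 to 830 counts in Trp53_KO leave ratios with 1 count in Trp53_WT known only within wide intervals.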
